A study of Homo sapiens with 12 samples.

Results

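The enzymes that make serine from a glycolytic intermediate, split it into glycine and carry its carbon through the folate cycle were followed as a group of 10 genes among 59424 genes measured by RNA sequencing. The members are PHGDH, PSAT1, PSPH, SHMT1, SHMT2, MTHFD1, MTHFD2, MTHFD1L, ALDH1L2 and GLDC, and all 10 were found by their Ensembl identifiers in the tables of both cell lines. The pathway was selected on the measured differences of 2 of them, PSAT1 and GLDC, between treated and control libraries in these data, so their values are given as descriptions with no test, and the other 8 members were tested. GALNT7, a Golgi glycosyltransferase that adds N-acetylgalactosamine to proteins, was knocked down in CWR22Rv1 cells or overexpressed in DU145 cells, both established human prostate cancer lines. The 4 groups were CWR22Rv1 with a lentiviral control shRNA (shControl), CWR22Rv1 with a lentiviral shRNA against GALNT7 (GALNT7 KD), DU145 with a lentiviral control (OE control) and DU145 with a lentiviral GALNT7 open reading frame (GALNT7 OE), each with 3 libraries labelled as biological replicates. Every line was made by stable transduction, 1 line stands for each group, and the cell line cannot be told apart from the direction of the manipulation, since neither line received both.

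The libraries held 18364512 to 22264533 reads in CWR22Rv1 and 21628718 to 24356910 reads in DU145. Levels are normalised counts, reads divided by a size factor for each library, and the 2 cell lines were scaled separately. GALNT7 itself averaged 999 in shControl and 461 in GALNT7 KD, and 964 in OE control and 2181 in GALNT7 OE, with no overlap in either line. The epithelial gene KRT8 was at 9990.0 or more in all 12 libraries. Of the blood cell markers, CD3E was at 0 in all 12 libraries and PTPRC reached at most 2.10, while CD14 averaged 90.4 in OE control and 28.1 in GALNT7 OE, where it was called lower (log2 -1.60, limma adjusted p = 0.00307). In a bulk library, a change in the make-up of the culture and a change in RNA per cell cannot be told apart.

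Serine is made from 3-phosphoglycerate in a short chain: PHGDH oxidises it, PSAT1 adds an amino group taken from glutamate, and PSPH removes the phosphate. SHMT1 in the cytosol and SHMT2 in mitochondria then split serine into glycine and a carbon unit that is held by tetrahydrofolate. MTHFD2 and MTHFD1L turn that unit into formate inside mitochondria, ALDH1L2 can oxidise it there to carbon dioxide, MTHFD1 takes it up in the cytosol for purine, thymidylate and methionine synthesis, and GLDC begins the breakdown of glycine in the mitochondrial glycine cleavage system. In tumour cells the pathway is known as a source of nucleotides, glutathione and NADPH, and several of its genes are known targets of the stress-response factor ATF4.

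The promoter windows of 4 members are shown because these genes had the largest folds after GALNT7 overexpression and so let their upstream sequences be set side by side. Windows from RefSeq, 250 bases before to 50 bases after the start, were used here for 7 of the 10 members (GRCh38.p14): PHGDH at chr1:119711684-119711983 (plus strand), PSAT1 at chr9:78296875-78297174 (plus strand), MTHFD2 at chr2:74198365-74198664 (plus strand) and GLDC at chr9:6645680-6645979 (minus strand) among them, with SHMT1, MTHFD1 and MTHFD1L. Windows of PSPH, SHMT2 and ALDH1L2 were not used here. Capitals mark the letters CCAAT, or ATTGG for the same letters on the opposite strand.
PHGDH: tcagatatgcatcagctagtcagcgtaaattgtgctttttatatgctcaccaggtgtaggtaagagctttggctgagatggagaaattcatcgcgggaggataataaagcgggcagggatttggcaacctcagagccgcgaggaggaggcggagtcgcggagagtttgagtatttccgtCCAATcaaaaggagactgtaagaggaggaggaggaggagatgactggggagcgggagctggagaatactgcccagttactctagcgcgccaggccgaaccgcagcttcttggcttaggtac
PSAT1: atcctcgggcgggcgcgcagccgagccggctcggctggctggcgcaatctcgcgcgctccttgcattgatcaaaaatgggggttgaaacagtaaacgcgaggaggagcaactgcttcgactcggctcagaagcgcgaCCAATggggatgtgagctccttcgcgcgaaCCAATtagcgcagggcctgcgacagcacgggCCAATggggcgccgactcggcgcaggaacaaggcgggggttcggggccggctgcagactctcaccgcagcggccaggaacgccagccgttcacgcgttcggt
MTHFD2: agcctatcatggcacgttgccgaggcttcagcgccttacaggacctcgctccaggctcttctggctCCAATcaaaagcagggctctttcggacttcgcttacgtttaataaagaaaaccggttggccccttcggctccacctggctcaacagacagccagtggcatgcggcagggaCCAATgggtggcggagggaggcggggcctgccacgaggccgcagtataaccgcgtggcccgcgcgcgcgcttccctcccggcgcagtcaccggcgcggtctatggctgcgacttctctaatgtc
GLDC: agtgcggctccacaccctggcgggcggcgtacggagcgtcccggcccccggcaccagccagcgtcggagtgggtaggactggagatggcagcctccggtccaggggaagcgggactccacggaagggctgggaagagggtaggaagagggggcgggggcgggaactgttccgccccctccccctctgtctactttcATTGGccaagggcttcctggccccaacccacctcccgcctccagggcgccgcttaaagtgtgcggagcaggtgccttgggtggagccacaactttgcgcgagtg
PSAT1 held CCAAT at 3 places, with first bases 113, 83 and 52 bases before the start, whereas PHGDH held it once, 71 bases before, and MTHFD2 held it 184 and 74 bases before. In GLDC the letters lay on the opposite strand, 54 bases before the start. With both strands searched, CCAAT occurred in 9 of the 10 windows and in 7 of 7 members. Of the 35116 RefSeq windows of the same length, 34.6% held it. MTHFD1L has 4 windows, and each other member has 1. Of the MTHFD1L windows 3 overlap, so 1 site can be counted 3 times, and member counts are the ones to read. The shares over all windows are counted per window, not per gene, so they differ in unit from the member counts. TGATGNAA, the core letters of the element that ATF4 binds with its partners, occurred in 3 of 10 windows. These matches were 1 site of MTHFD1L, so 1 of 7 members held it, beside 3.62% of all windows. The E-box CACGTG occurred in 4 of 10 windows but in 2 of 7 members (MTHFD1 and MTHFD1L), beside 7.26% of all windows. The GC box GGGCGG occurred in 6 of 10 windows and 4 of 7 members (PSAT1, SHMT1, MTHFD1L and GLDC), beside 45.0%. No match of 1 motif overlapped a match of another in the members' windows, and a match of letters is a description of the window, not of a bound site.

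After GALNT7 overexpression in DU145, every member of the group was higher. All 8 members that did not pick the pathway lay above every OE control library in all 3 GALNT7 OE libraries, where 28.2% of the 18705 genes tested did so, and so did PSAT1 and GLDC, which picked it. Of these 8 members, 8 were called higher and 0 lower by limma with Benjamini-Hochberg adjustment over all genes, at an adjusted p under 0.05. The background in this comparison was high: 43.5% of all genes tested were called, 22.9% higher and 20.5% lower. The median log2 fold change of these 8 members was 0.78, beside -0.011 for all genes tested. Summed over the 10 members, reads made up 0.0907% to 0.0923% of all reads in OE control and 0.218% to 0.222% in GALNT7 OE. This sum includes PSAT1 and GLDC, which picked the pathway, so it is a description and adds no support to the calls.

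The serine synthesis chain showed the members with the largest and the smallest change in DU145. PSAT1 (ENSG00000135069, chromosome 9, 78297143 to 78330093), the aminotransferase, had normalised counts of 4794, 4747 and 4714 in OE control and 17073, 17548 and 17374 in GALNT7 OE. Its libraries within a group lay close together, and the means, 4752 ± 40.2 and 17332 ± 240 (SD, n = 3), were 3.65-fold apart, a value that picked the pathway and has no test. PSAT1 alone took 23.0% to 23.7% of all reads on the 10 members in OE control and 34.9% to 35.1% in GALNT7 OE. PHGDH (ENSG00000092621, chromosome 1, 119648411 to 119744226), the first enzyme of the chain, had 1947, 1787 and 2126 in OE control and 5136, 5016 and 4644 in GALNT7 OE. The lowest treated library stood well above the highest control, and PHGDH rose 2.53-fold (log2 1.34 ± 0.075, SE, limma adjusted p = 2.63e-05). PSPH (ENSG00000146733, chromosome 7, 56011051 to 56051604), the phosphatase that completes the chain, had 1178, 994 and 888 in OE control and 1365, 1499 and 1339.5 in GALNT7 OE. The control libraries were spread widely but did not reach the treated ones, and PSPH rose 1.38-fold (log2 0.47 ± 0.11, SE, limma adjusted p = 0.0135). PSPH has an unprocessed pseudogene, PSPHP1, at 105.9 to 135 in the DU145 libraries, so the split of reads between them is uncertain; other named pseudogenes of the members stayed at or below 3.54.

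**Figure D1:**
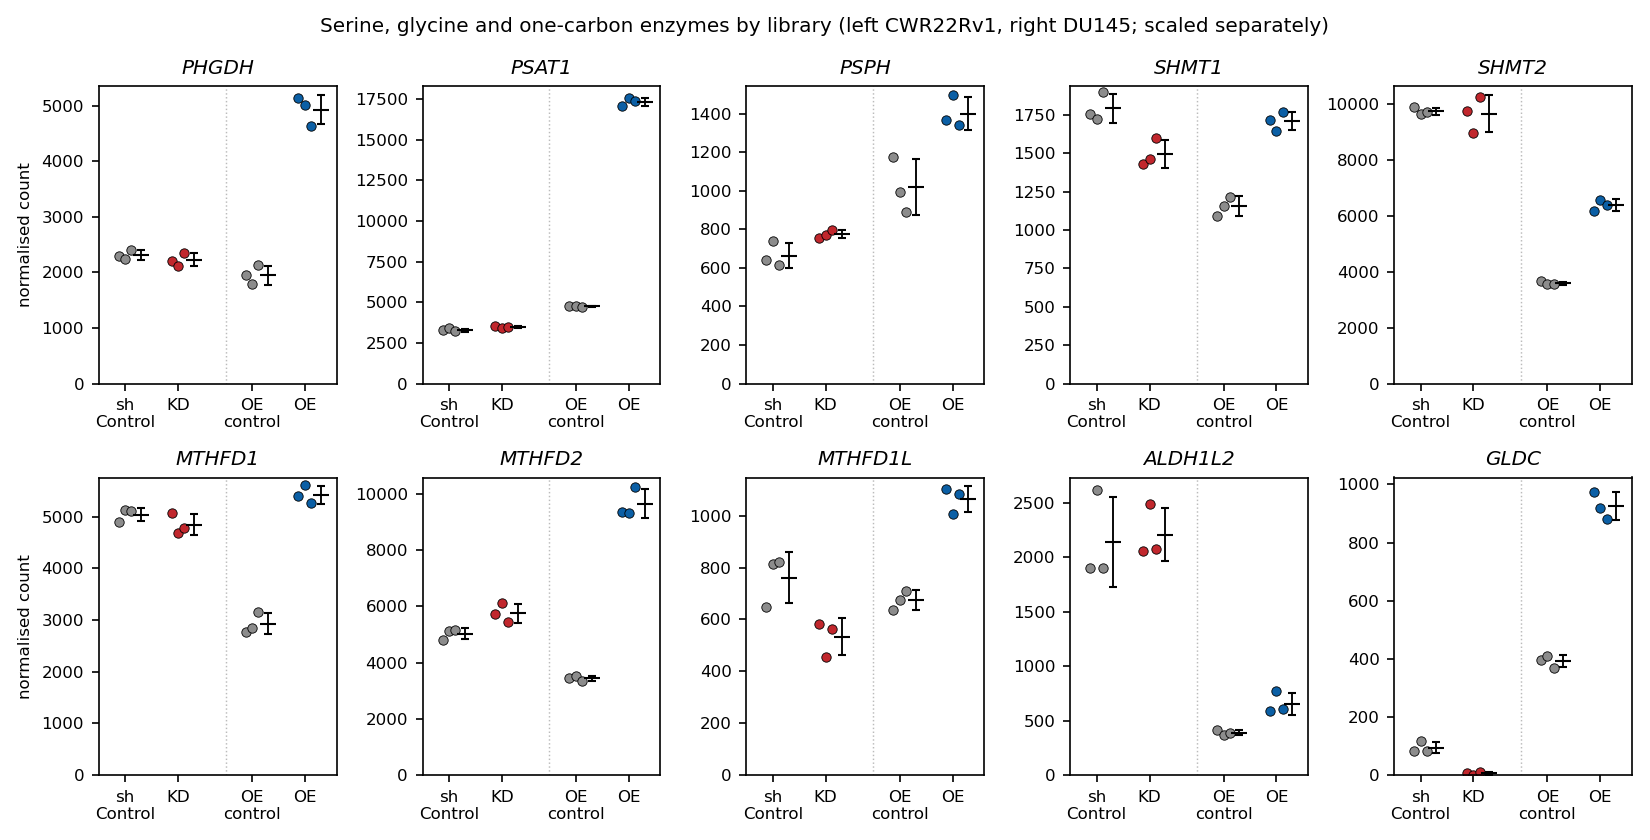
Normalised counts (linear axis from 0) of the 10 members in each of the 12 libraries, as points, with the mean and SD (n = 3) as a bar beside them; CWR22Rv1 stands left and DU145 right of the dotted line. In DU145 all 10 members lie higher in GALNT7 OE, PSAT1 at 17073 to 17548 against 4714 to 4794, while in CWR22Rv1 most pairs of groups lie close and GLDC falls to 10.6 or less.

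The step from serine to glycine was higher in both compartments. SHMT2 (ENSG00000182199, chromosome 12, 57229327 to 57234935), the mitochondrial enzyme, had 3658, 3559 and 3557 in OE control and 6179.8, 6589.7 and 6415 in GALNT7 OE, with narrow groups far apart. It rose 1.78-fold (log2 0.83 ± 0.042, SE, limma adjusted p = 1.55e-05). SHMT1 (ENSG00000176974, chromosome 17, 18327860 to 18363563), its cytosolic counterpart, had 1092, 1159 and 1218 in OE control and 1717, 1646 and 1766 in GALNT7 OE. Its groups did not overlap either, and SHMT1 rose 1.48-fold (log2 0.56 ± 0.064, SE, limma adjusted p = 5.24e-04).

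Among the 4 folate enzymes of the group, MTHFD2 had the largest change. MTHFD2 (ENSG00000065911, chromosome 2, 74198562 to 74217565), the mitochondrial dehydrogenase and cyclohydrolase, had 3467, 3515 and 3351 in OE control and 9354, 9333 and 10236 in GALNT7 OE. All treated libraries stood far above the controls, and MTHFD2 rose 2.80-fold (log2 1.48 ± 0.050, SE, limma adjusted p = 3.82e-06). MTHFD1 (ENSG00000100714, chromosome 14, 64388031 to 64463457), the cytosolic enzyme that joins 3 activities in 1 protein, had 2776, 2847 and 3162 in OE control and 5390.1, 5612 and 5266 in GALNT7 OE. Its groups were clearly separate, and MTHFD1 rose 1.85-fold (log2 0.89 ± 0.061, SE, limma adjusted p = 5.80e-05). MTHFD1L (ENSG00000120254, chromosome 6, 150865549 to 151101887), which releases formate in mitochondria, had 637, 675 and 711 in OE control and 1102, 1007 and 1082 in GALNT7 OE. No library crossed between these groups, and MTHFD1L rose 1.58-fold (log2 0.66 ± 0.073, SE, limma adjusted p = 4.90e-04). ALDH1L2 (ENSG00000136010, chromosome 12, 105019784 to 105084577), the mitochondrial formyltetrahydrofolate dehydrogenase, had 414, 370.2 and 384 in OE control and 583, 771 and 602 in GALNT7 OE. One treated library stood higher than the other two, no groups overlapped, and ALDH1L2 rose 1.66-fold (log2 0.73 ± 0.12, SE, limma adjusted p = 0.00313).

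GLDC (ENSG00000178445, chromosome 9, 6532464 to 6645783), the glycine decarboxylase, had 397, 410.1 and 369.8 in OE control and 975, 919 and 880.0 in GALNT7 OE. The means, 392 ± 20.6 and 925 ± 47.8 (SD, n = 3), were 2.35-fold apart on the log2(normalised count + 1) scale, again a value that picked the pathway. The groups were far apart relative to the spread of their libraries.

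After GALNT7 knockdown in CWR22Rv1, no tested member passed the threshold, and GLDC, which picked the pathway, was far lower. Summed reads on the 10 members, PSAT1 and GLDC included, were 0.153% to 0.16% of all reads in shControl and 0.156% to 0.16% in GALNT7 KD, so the ranges overlapped. Of the 8 tested members, 0 were called by limma, beside 9.06% of the 17906 genes tested (5.28% higher and 3.79% lower). Among only 8 genes, 0 calls lies near that share and is not read as a result about the members. At an unadjusted p under 0.05 limma had 4 of 8, and the share of all genes at that cutoff was not counted. After adjustment, edgeR on recovered reads called 0 of 8, beside 1665 of 16373 genes. DESeq2 called 2601 of 16536 genes and 3 of these 8 members: SHMT1 (adjusted p = 0.019), MTHFD2 (0.0304) and MTHFD1L (0.0107). The median log2 fold change of the 8 was -0.035, beside -0.0063 for all genes.

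GLDC had 84.0, 117 and 81.5 normalised counts in shControl and 7.73, 1.07 and 10.6 in GALNT7 KD, which are 8, 1 and 11 reads. All 3 knockdown libraries lay far below the lowest control. From 311 reads in shControl and 20 in GALNT7 KD over the 3 libraries each, GLDC was 14.2-fold lower in GALNT7 KD, given as a description. No test was made, since this difference picked the pathway. AMT, the aminomethyltransferase that works next to GLDC in glycine cleavage, was looked at after its values were seen. It had 87.7, 57.5 and 63.2 in shControl and 0.967, 19.2 and 37.6 in GALNT7 KD, with no overlap and a limma adjusted p of 0.17. In DU145 AMT averaged 83.7 ± 42.5 in OE control and 30.1 ± 18.3 in GALNT7 OE (SD, n = 3) with overlapping groups and a limma adjusted p of 0.0704, so its mean was lower there while that of GLDC was higher.

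No serine synthesis enzyme passed the test or stood far from its controls in CWR22Rv1. PHGDH had 2294, 2239.5 and 2409 in shControl and 2202, 2124 and 2359 in GALNT7 KD. These groups overlapped, and the 95% interval of the log2 difference ran from -0.20 to 0.091 (limma adjusted p = 0.622). PSAT1 had 3272, 3388 and 3206 in shControl and 3545, 3432 and 3450.3 in GALNT7 KD, a description with no test. Each knockdown library was above each control, by a mean log2 difference of 0.080, far smaller than the 1.87 seen for PSAT1 in DU145. PSPH had 639, 739 and 613 in shControl and 754, 771 and 796 in GALNT7 KD. The groups did not overlap, but the log2 difference of 0.22 ± 0.091 (SE) did not pass (limma adjusted p = 0.177).

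SHMT1, MTHFD1L and MTHFD2 had groups that did not overlap in GALNT7 KD but did not pass the test. SHMT1 had 1756, 1724 and 1898 in shControl and 1429.9, 1462 and 1601 in GALNT7 KD, lower in every library, with a log2 difference of -0.26 ± 0.071 (SE, limma adjusted p = 0.0693). MTHFD1L had 648, 813 and 821 against 584, 454 and 563, also without overlap, with a log2 difference of -0.51 ± 0.14 (SE, limma adjusted p = 0.0687). MTHFD2 had 4818, 5127 and 5143 against 5724, 6115 and 5436, higher in every knockdown library, with a log2 difference of 0.19 ± 0.057 (SE, limma adjusted p = 0.0829). Of the 8 tested members, 2 lay wholly above the controls and 2 wholly below, where 16.9% and 15.6% of all genes tested did so. PSAT1, above, and GLDC, below, picked the pathway and are left out of this count.

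SHMT2, MTHFD1 and ALDH1L2 overlapped between the CWR22Rv1 groups. SHMT2 had 9905, 9666 and 9714 in shControl and 9772, 8981 and 10267 in GALNT7 KD (95% interval of the log2 difference -0.14 to 0.11, limma adjusted p = 0.894). MTHFD1 had 4888, 5125 and 5107 against 5069.9, 4686 and 4779 (interval -0.17 to 0.057, limma adjusted p = 0.50). ALDH1L2 had 1896, 2618 and 1899 against 2055, 2484 and 2078, with replicate 2 the highest of both groups and a wide interval of -0.29 to 0.40 (limma adjusted p = 0.848). SHMT2 and ALDH1L2 lie on chromosome 12, whose 922 tested genes had a median log2 difference of -0.28 in GALNT7 KD beside -0.0063 over all genes. Centred on the median of its chromosome, SHMT2 turned from -0.015 to 0.26 and passed the threshold (limma adjusted p = 0.0344), and ALDH1L2 went from 0.057 to 0.33 without passing.

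**Figure D2:**
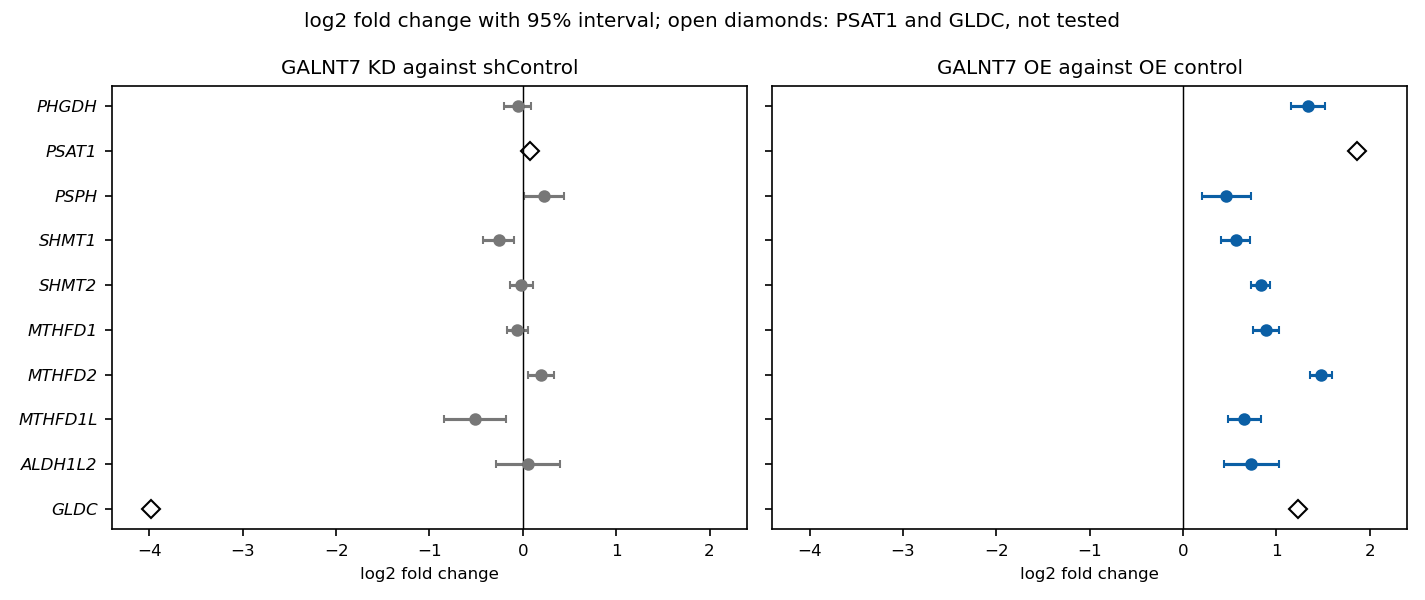
Mean log2 fold change of each member in GALNT7 KD against shControl (left) and GALNT7 OE against OE control (right), with the 95% interval from limma; blue marks a call at an adjusted p under 0.05, grey no call, and open diamonds PSAT1 and GLDC, which picked the pathway and were not tested. All 8 tested members lie right of 0 in DU145, from 0.47 for PSPH to 1.48 for MTHFD2, while in CWR22Rv1 they lie between -0.51 and 0.22 and GLDC lies at -3.98.

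The balance between mitochondrial and cytosolic enzymes was read as a log2 ratio of normalised counts within each library, in which the library's scaling cancels. SHMT2 to SHMT1 lay at 2.50, 2.49 and 2.36 in shControl and 2.77, 2.62 and 2.68 in GALNT7 KD, and at 1.74, 1.62 and 1.55 in OE control and 1.85, 2.00 and 1.86 in GALNT7 OE. The mean ratio was thus 0.24 higher in GALNT7 KD and 0.27 higher in GALNT7 OE. MTHFD2 to MTHFD1 was 0.25 higher in GALNT7 KD and 0.59 higher in GALNT7 OE. MTHFD1L to MTHFD1 differed the other way, by -0.45 in GALNT7 KD and -0.23 in GALNT7 OE. Within each cell line no library of one group reached the other for any of the 3 ratios, and each of the 6 two-sided exact permutation tests gave p = 0.1, also 0.1 after adjustment, the smallest that 3 against 3 libraries can give. No ratio could therefore pass a threshold of 0.05, and the differences are given as values. How often ratios of other gene pairs separate in this way was not counted. Each ratio combines the fold changes of 2 members given above. Whether the shifts differ between the lines was not tested.

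**Figure D3:**
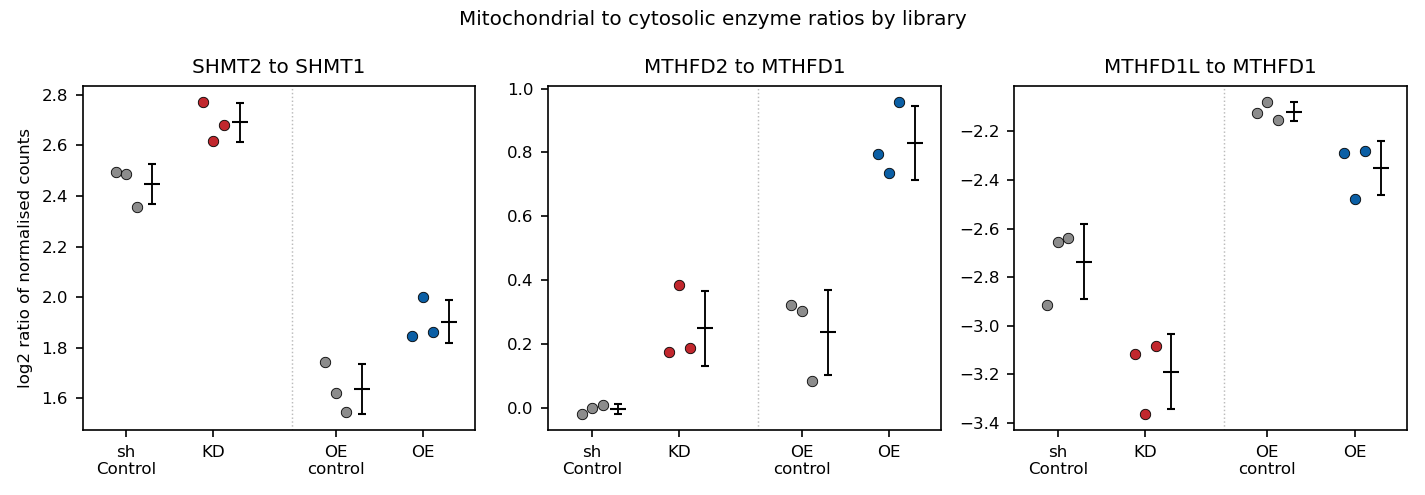
Log2 ratio of normalised counts (vertical axes do not start at 0) of SHMT2 to SHMT1, MTHFD2 to MTHFD1 and MTHFD1L to MTHFD1 in each library, with the mean and SD (n = 3) beside the points; CWR22Rv1 stands left and DU145 right of the dotted line. The first 2 ratios lie higher and the third lower in both treated groups, with means differing by 0.24, 0.25 and -0.45 in CWR22Rv1 and by 0.27, 0.59 and -0.23 in DU145.

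Compared per kilobase of exon, the members differed widely in level. SHMT2 was the highest of the 10 in both CWR22Rv1 groups (2018 ± 26.1 normalised counts per kilobase in shControl, SD, n = 3), and PSAT1 the highest in both DU145 groups (2172 ± 18.4 in OE control and 7921 ± 110 in GALNT7 OE). GLDC was the lowest and MTHFD1L the second lowest in CWR22Rv1, at 10.5 ± 2.20 and 152 ± 19.5 per kilobase in shControl. In DU145 ALDH1L2 and GLDC were the 2 lowest, at 45.8 ± 2.65 and 43.9 ± 2.30 per kilobase of merged exons in OE control, where their ranges overlapped, and at 51.6 and 101 per kilobase of the principal transcript. The highest member, and the lowest 2 as a pair, were the same with both lengths; the order of the members between them was not, and is not given.

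From replicate to replicate, the pairs of members had no common sign of correlation. Over the 12 libraries, after the mean of each group was taken off, the correlation of log2 values had a median of 0.148 over the 45 pairs of members, and 28 of 45 pairs were above 0. PSPH and ALDH1L2 gave r = 0.66, PSAT1 and PSPH r = 0.61, and PHGDH and MTHFD2 r = -0.69, each with the same sign in both lines. SHMT2 and GLDC had the highest value, 0.80, but it was 0.91 in CWR22Rv1 and -0.33 in DU145. The points share libraries and size factors, so these values are descriptions.

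Across the groups, the genes most like PSAT1 among 10597 genes, by Pearson correlation of log2 values standardised within each line over the 12 libraries, were RAP1GDS1 (0.99), PTDSS1 (0.98) and ATF3 (0.98). Those most like GLDC were ACTB, BLOC1S1 and BANF1, all at 0.99. Standardising removes the size of a change, so a high value does not mean a like fold. In GALNT7 KD these 3 genes were at log2 -0.31, -0.27 and -0.34, where GLDC was at -3.98. In GALNT7 OE they were at 0.44, 0.57 and 0.68, where GLDC was at 1.235. Within the pathway, PSPH (0.89, rank 388) and MTHFD2 (0.85, rank 711) came nearest to PSAT1. MTHFD1L (0.95, rank 96) and SHMT1 (0.92, rank 231) came nearest to GLDC, while PSAT1 and GLDC correlated with each other at 0.16. Ranks are among the 10597 genes, so many genes outside the pathway came nearer. These correlations keep the group differences that picked the pathway and are descriptions. PSAT1 and GLDC were both higher in GALNT7 OE and differed in sign in GALNT7 KD.

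The genes around the members, 66 in 7 lists for glycine cleavage, folate handling, nucleotide synthesis, methionine, glutathione, transport and side routes, were also called often in DU145. Of 59 tested, 29 rose and 11 fell in GALNT7 OE, beside 22.9% and 20.5% of all genes, and their median log2 fold change was 0.27. The list of thymidylate and purine synthesis, which draws on carbon from the members, had 7 of 7 higher. TYMS, thymidylate synthase, rose from 1794 to 4953 (log2 1.46 ± 0.048, SE, limma adjusted p = 3.80e-06), and the purine enzyme PAICS rose from 3819 to 8176 (log2 1.10). PFAS and ADSL, also of purine synthesis, rose by log2 0.88 and 0.86. In the folate list 4 of 13 rose and 3 fell: SLC25A32, the mitochondrial folate carrier, rose by log2 0.70, and SLC46A1, a folate transporter of the plasma membrane, fell by 0.46 on the log2 scale.

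For glycine cleavage, 3 of 6 genes rose and 0 fell in GALNT7 OE, beside 22.9% of all genes called higher and 20.5% called lower, the shares against which the counts of the other lists here are also to be read. GCSH, the carrier protein that receives the aminomethyl group from GLDC, rose by log2 0.91 ± 0.14 (SE, limma adjusted p = 0.00242). DLD, the shared dihydrolipoyl dehydrogenase, rose by log2 0.50, and LIAS, lipoic acid synthetase, rose by log2 0.59. Transport had 5 of 8 higher and 2 lower, with SLC1A5, a neutral amino acid exchanger, up by log2 1.07, SFXN1, a mitochondrial serine carrier, up by 0.61, and its relative SFXN3 lower by a log2 change of -1.05. Trans-sulfuration and glutathione had 3 of 5 higher and 1 lower, and the 2 subunits of glutamate-cysteine ligase moved apart: the modifier GCLM rose from 867 to 2426 (log2 1.49) while the catalytic GCLC fell from 6331 to 4992 (log2 -0.34). The methionine cycle had 4 of 10 higher and 4 lower, with MMACHC at log2 0.56, AHCY at 0.50 and AHCYL2 at -0.47. Serine and glycine breakdown had 3 of 10 higher and 1 lower, with a median of 0.00023.

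In GALNT7 KD, 5 of 60 tested genes of these lists rose and 1 fell, beside 5.28% and 3.79% of all genes, and the median log2 fold change was 0.022. TYMS fell from 5448 to 4254 (log2 -0.36 ± 0.041, SE, limma adjusted p = 0.00527), the only one of the 6 calls that held under every alternative. GGH, which trims folate polyglutamates, was at log2 0.53, PPAT, the first enzyme of purine synthesis, at 0.41, DLD at 0.31, GCLC at 0.40 and GCLM at 0.49, with limma adjusted p between 0.0119 and 0.0388. Each of these 5 calls was lost under at least 1 alternative: the lists had 1 call without shControl replicate 1 or GALNT7 KD replicate 1, 3 without shControl replicate 3 or GALNT7 KD replicate 2, 4 without shControl replicate 2 and 9 without GALNT7 KD replicate 3. With all libraries kept, eBayes without a trend lost DLD, PPAT and GCLM. In the fits that lost them, the log2 difference stayed at 0.49 to 0.51 for GGH, 0.42 to 0.50 for GCLM and 0.35 to 0.40 for GCLC. All 6 of these genes were also called in DU145, where DLD, GGH, PPAT and GCLM rose as well, and TYMS and GCLC were called in opposite directions in the 2 lines. No test was made of a difference between the lines.

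**Figure D4:**
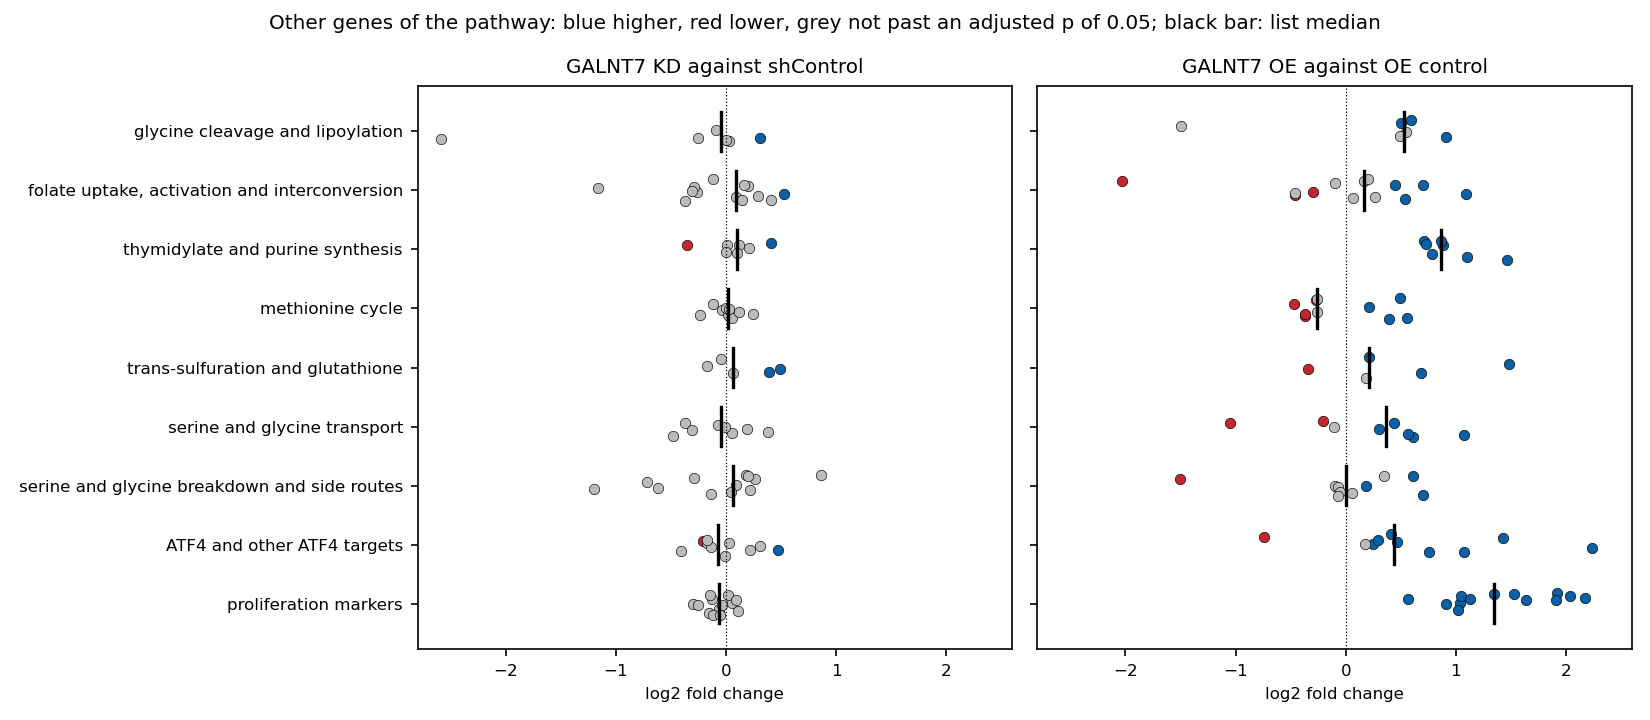
Log2 fold change of each tested gene (points) in 7 lists of pathway genes, ATF4 targets and proliferation markers, in GALNT7 KD (left) and GALNT7 OE (right); blue is higher and red lower at an adjusted p under 0.05, grey is not past it, and the black bar is the list median. In DU145 the proliferation list (median 1.34) and thymidylate and purine synthesis (0.86) lie wholly right of 0, while in CWR22Rv1 every list median lies between -0.072 and 0.11.

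Other programmes moved in DU145 beside the members, and their part in the members' change was not tested. All 13 of 13 proliferation markers rose in GALNT7 OE, beside 22.9% of all genes called higher, with a median log2 fold change of 1.34. Their summed normalised count was 30102 to 30329 in OE control and 78817 to 85047 in GALNT7 OE. CDK1, which drives entry into mitosis, rose by log2 2.18, its cyclin CCNB1 by 2.04, MKI67 by 1.92 and BIRC5 by 1.91. In CWR22Rv1 0 of 13 were called by limma, beside 9.06% of all genes (3 at an unadjusted p under 0.05, a share not counted over all genes). There edgeR and DESeq2 each called 1, BIRC5, lower, and the sums were 85413 to 90905 in shControl and 82490 to 84820 in GALNT7 KD.

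Of ATF4 and its other targets, 8 of 10 rose and 1 fell in GALNT7 OE, beside 22.9% and 20.5% of all genes, and the summed normalised count went from 16322 to 17010 in OE control to 25600 to 26234 in GALNT7 OE. ASNS, asparagine synthetase, rose from 964 to 4549 (log2 2.24 ± 0.061, SE, limma adjusted p = 2.61e-06), a larger fold than that of any member. SLC7A11, the cystine importer, rose by log2 1.43, CHAC1 by 1.07, TRIB3 by 0.76 and ATF4 itself by 0.46 (limma adjusted p = 7.12e-05). CEBPB, a transcription factor and the gene that fell, named after its values were seen, went from 1949 to 1168 (log2 -0.74, limma adjusted p = 2.56e-04). In GALNT7 KD 1 of 10 rose and 1 fell, beside 5.28% and 3.79% of all genes. DDIT4 was at log2 0.47 (limma adjusted p = 0.0208) and ATF4 at -0.20 (0.0162). Both calls were lost without shControl replicate 1 (0.0739 and 0.0679), shControl replicate 2 (0.0644 and 0.0555), shControl replicate 3 (0.0741 and 0.0649) or GALNT7 KD replicate 1 (0.0711 and 0.0709). Without these libraries the log2 differences stayed at 0.46 to 0.49 for DDIT4 and at -0.21 to -0.20 for ATF4. With all libraries kept, the DDIT4 call was also lost with the replicate block (0.0516), and the ATF4 call with eBayes without a trend (0.119). The 10 markers of other cell types summed to 437 to 587 in OE control and 138 to 233 in GALNT7 OE, mostly COL1A1 and CD14, and to 81.2 to 131 in shControl and 106 to 126 in GALNT7 KD.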

How the data were processed

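Stranded poly(A) RNA libraries of 2 prostate cancer lines were compared, 3 biological replicates per group. The authors deposited 1 table per line of normalised counts for 59424 genes; for each library this deposited signal is its reads over 1 size factor. The submitters' processing notes name hg38, FastQC, Salmon, DESeq2 and R 3.5.3, with roles not given in the sources used here; Salmon shares reads among similar transcripts. Dividing by the value of 1 read gave whole reads for 100% of values (tolerance 0.01). No replicates were duplicates, since the chi-square per gene was 9.44 or more.

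Each line was fitted separately in R 4.3.3 with limma 3.58.1 (lmFit, eBayes with trend) after adding 1 to the normalised counts and taking log2, keeping genes that averaged at least 5, and p-values were adjusted by Benjamini-Hochberg (threshold 0.05). Adding 1 shrinks the fold changes of low genes. GLDC in GALNT7 KD was nonetheless 15.8-fold lower on this scale and 14.2-fold lower from summed reads. Names and positions came from GENCODE 29, which holds 94.4% of the genes. Alternatives included edgeR 4.0.16 and DESeq2 1.42.0 on recovered reads; the principal transcript length was added after the data were seen. The members and gene lists were chosen with earlier results of these data known. Named genes were the members and, per list and comparison, up to 4 called genes of largest change with a mean of at least 50, plus those called in both comparisons; those whose call failed under an alternative in DU145 are only counted, and some named items are not reported here. The 3 genes most like PSAT1 and GLDC had a mean of at least 100. The limma script was tested on simulated data.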

Additional observations from a re-analysis of the deposited data

How the results depend on the processing

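The count of 8 of 8 tested members higher in GALNT7 OE held under all 17 alternatives, with PSPH closest to the threshold (highest adjusted p 0.0467), and the count of 0 of 8 in GALNT7 KD held under 15 of 17: DESeq2 called 3 members and centring on chromosome medians called 1, SHMT2, which reversed to 0.26. Leaving out each replicate in turn left 0 members called in GALNT7 KD and 8 in GALNT7 OE throughout. Of the pathway lists, the 6 calls in GALNT7 KD became 3 with eBayes without a trend and 10 with DESeq2, and ranged from 1 to 9 when single replicates were left out; the 40 calls in GALNT7 OE ranged from 34 to 43 over all alternatives. Whether same-numbered libraries were handled together is not stated in the sources used here, and they were treated as unpaired. Over genes, same-numbered libraries correlated at 6e-04, 0.131 and 0.0241 in CWR22Rv1 and at 0.0406, 0.041 and 0.0318 in DU145. A low correlation cannot show that libraries were handled apart. With the replicate number as a block, 0 members were called in GALNT7 KD and 8 in GALNT7 OE, and the pathway lists had 3 and 38 calls; over all genes in CWR22Rv1 the block left 1002 calls of 1623, eBayes without a trend 996, and DESeq2 gave 2601. Rescaling to the 75th percentile changed the split over all genes in DU145 from 4290 higher and 3842 lower to 3380 higher and 4736 lower, with the median log2 fold change at -0.11. The median correlation between members moved from 0.148 to 0.104 in CWR22Rv1 alone and -0.157 in DU145 alone. The isozyme ratios kept their direction under every alternative tried. GLDC in GALNT7 KD rests on 20 reads, and its log2 fold change ran from -4.46 to -3.20. The cause of these changes was not tested.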
